A study of Mus musculus with 20 samples.

Results

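The endoplasmic reticulum (ER) folding and degradation machinery was described here through 36 listed genes, all of which are in the deposited table of 16047 genes. They fall into 13 chaperones and their partners, 3 prolyl isomerases, 10 disulfide isomerases and thioredoxin-like proteins, and 10 factors of ER-associated degradation. The genes were chosen by function, with no measured value in the rule, though with earlier results of these data known. Their transcripts were counted in 1367 single eYFP+ B cells and plasma cells sorted from mouse lymph node. The C57BL/6 animals had received NP-KLH (a hapten on a carrier protein) in Sigma Adjuvant System, and were sampled at day 15 of this first response, which fell 4 days after oral tamoxifen. All groups share the immunization, the tamoxifen and the eYFP sort, and the allele and promoter behind eYFP are not given in the sources used here. Libraries were made by FB5P-seq, a plate-based protocol that counts the 5' ends of transcripts and keeps the flow cytometry record of each cell.

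Cells came from 20 plates, 10 of the sampleID C57BL/6F and 10 of C57BL/6M. The labels give neither the number nor the age of the mice, so sex, animal, sampleID and handling cannot be told apart, and every p-value measures the spread between plates only. The sort used 4 gates, named DZ (dark zone, 325 cells), LZ (light zone, 367 cells), PrePC (pre-plasma, 282 cells) and PC (plasma, 393 cells) in the authors' table of cells. The same table annotates 7 states: dark zone (452 cells), light zone (278), light-to-dark zone (48), pre-memory (17), plasma (480), prePC.Act (29, called activated pre-plasma here) and prePC.Mem (63, called memory-like pre-plasma here). The pre-plasma gate was mixed: of its 282 cells, 97 were annotated to the 3 germinal centre states, 56 to the 2 pre-plasma states, 128 as plasma and 1 as pre-memory.

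Secreted and membrane proteins enter the ER unfolded. The Hsp70 protein BiP, encoded by Hspa5, binds exposed hydrophobic stretches with the help of J-domain partners and nucleotide exchange factors, lectin chaperones hold glycoproteins, disulfide isomerases pair cysteines, and prolyl isomerases turn proline bonds. Chains that fail to fold are trimmed by EDEM proteins, recognised by lectins such as OS9, and pulled through a membrane complex of SEL1L, the ubiquitin ligase HRD1 (encoded by Syvn1), HERP and derlins for destruction by the proteasome. Plasma cells are a textbook case of a high secretory load, because each antibody is a disulfide-linked glycoprotein, and XBP1, a transcription factor of the unfolded protein response, is needed for their secretory expansion.

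Promoter letters are shown first because many of these genes are known to be driven by ER stress elements. RefSeq promoter windows of 300 bases (250 before to 50 after the start, GRCm38.p6, the assembly also called mm10) matched 31 of the 36 genes in 39 windows, and 33 of those windows end inside a GENCODE M21 transcript of the same gene and strand. Both strands were searched for 3 motifs: the ER stress element ERSE (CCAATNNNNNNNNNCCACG), its variant ERSE-II (ATTGG and CCACG with 1 base between them) and a core of the unfolded protein response element (TGACGTGG). ERSE was present in 9 of the 31 genes, against 0.137% of the 27025 genes in the RefSeq table. ERSE-II was present in Herpud1 and Dnajb11, against 0.0444% of genes, and the third motif in Txndc5 and Txndc11, against 0.714%. Any of the motifs occurred in 7 of 10 chaperones with a window, 0 of 3 prolyl isomerases, 3 of 9 disulfide isomerases and 3 of 9 degradation factors. The stretches around the matches in 8 genes follow, 5' to 3' on the strand of the gene, with the fixed letters of the motif in capitals. A reverse-strand match reads CGTGG before ATTGG. A match is a run of letters, not evidence of binding.
Hspa5, chr2:34772005-34772063, gene on the plus strand: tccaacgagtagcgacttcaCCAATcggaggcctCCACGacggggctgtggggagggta
Hsp90b1, chr10:86705618-86705676, gene on the minus strand: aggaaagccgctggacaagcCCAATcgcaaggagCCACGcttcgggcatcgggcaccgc
Hsp90b1, chr10:86705513-86705571, gene on the minus strand: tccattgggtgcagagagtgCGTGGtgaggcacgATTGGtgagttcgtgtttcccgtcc
Calr, chr8:84847055-84847113, gene on the minus strand: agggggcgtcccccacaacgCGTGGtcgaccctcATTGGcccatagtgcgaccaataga
Creld2, chr15:88819500-88819558, gene on the plus strand: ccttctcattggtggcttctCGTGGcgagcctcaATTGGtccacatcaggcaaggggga
Pdia6, chr12:17266471-17266529, gene on the plus strand: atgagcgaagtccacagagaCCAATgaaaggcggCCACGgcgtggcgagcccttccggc
Derl3, chr10:75893222-75893280, gene on the plus strand: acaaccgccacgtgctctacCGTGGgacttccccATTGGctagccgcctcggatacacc
Syvn1, chr19:6046512-6046570, gene on the plus strand: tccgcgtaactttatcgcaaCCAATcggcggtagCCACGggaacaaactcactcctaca
Herpud1, chr8:94386357-94386407, gene on the plus strand: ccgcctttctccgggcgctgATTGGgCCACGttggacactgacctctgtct
Hsp90b1 held ERSE at 2 places, the first on the forward and the second on the reverse strand. Canx and Dnajc3 held ERSE as well. None of the 3 motifs was in the windows of Fkbp11, Pdia4, Edem1 or Sel1l, which says only that these letters are not in those windows.

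Plate totals ran from 5979 to 11908095 counts, and the median cell held 60536. The plate with 5979 counts, plate 6 of C57BL/6F, held 10 cells, and the next lowest plate held 3208858 counts. Plate 6 entered no comparison, and values over plates below leave it out. Median depth per cell was 59514 counts for the plasma gate, 86863 for the pre-plasma gate, 54019 for the light zone gate and 51995 for the dark zone gate, and the median spike-in share in that order was 3.64%, 2.45%, 3.90% and 4.12%. Immunoglobulin genes took 6.86%, 2.63%, 1.42% and 1.5% of counts in the same order. The 7 plasma cell markers summed to 22980 CPM (counts scaled to a common library total), 9068, 3573 and 5100, again in that order, while the 7 germinal centre markers summed to 36.6, 839, 2379 and 3086. Among markers of other cells, the myeloid list (5 of 8 genes in the table) summed to 1151, 495, 340 and 378 CPM, nearly all from Cst3 (1148 CPM in the plasma gate), with Lyz2 at 2.28 CPM and Csf1r at 0 in that gate. In the pre-plasma gate Lyz2 stood at 7.28 CPM with a count in 48 cells. Itgam stood there at 4.61 CPM (8 cells) and Fcgr3 at 3.70 CPM (2 cells). Lyz2 was at 0.12 CPM in the light zone gate and 0.05 in the dark zone gate. T cell markers (7 of 8 genes) summed to 22.1, 81.0, 440 and 278 CPM, and Lck made up 17.2, 78.5, 439 and 277 of these. The part of these differences in the results was not tested. No cell name occurred more than once.

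Together the 36 genes took a small share of counts in germinal centre B cells and several times more in plasma cells. Over 19 plates, the summed share of the dark zone gate was 0.456 to 0.894% (median 0.600%) and that of the light zone gate 0.560 to 0.888% (median 0.698%). It was 1.58 to 3.21% (median 2.40%) for the pre-plasma gate and 4.11 to 5.46% (median 4.66%) for the plasma gate. The ranges of the pre-plasma and plasma gates overlapped neither each other nor those of the germinal centre gates. Including plate 6, which had 5 pre-plasma cells and 3188 counts in them, the lowest pre-plasma share was 1.54%. The 0.894% of the dark zone gate belonged to plate 8 of C57BL/6F, where cells annotated dark zone had 0.572%. Chaperones took a median of 2.19% of counts in the plasma gate, against 0.177% in the dark zone gate. Prolyl isomerases took 0.590% against 0.0426%, disulfide isomerases 1.11% against 0.221%, and degradation factors 0.732% against 0.159%.

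**Figure D1:**
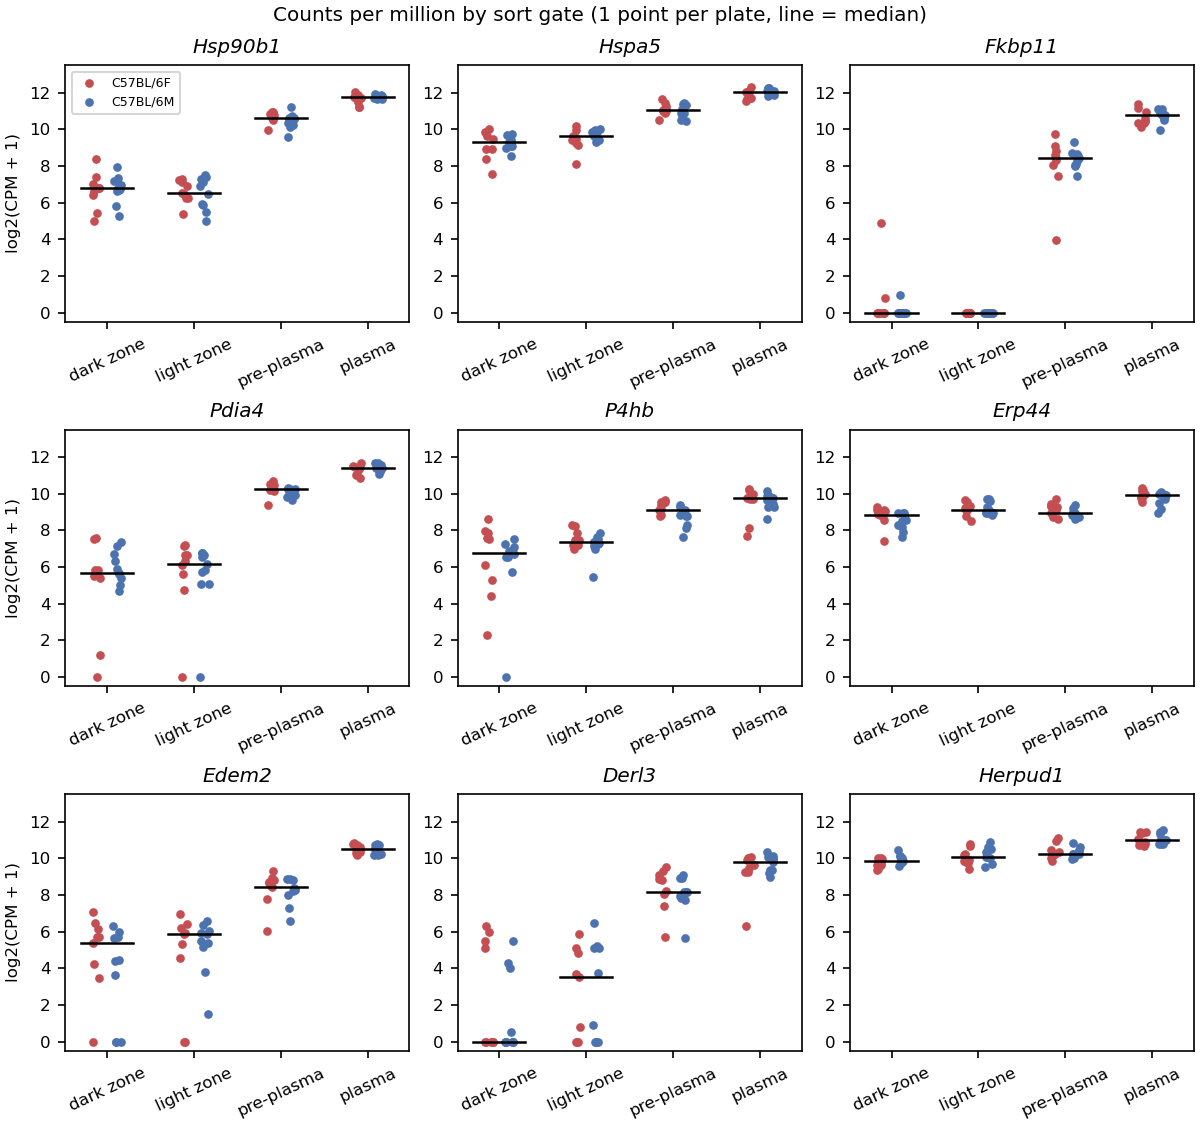
Levels of 9 genes in the 4 sort gates. Each point is 1 plate (19 per gate, C57BL/6F red and C57BL/6M blue), the line is the median, and the vertical axis is log2(CPM + 1) of the counts summed per plate and gate. Hsp90b1, Fkbp11, Pdia4 and Edem2 stood higher in the pre-plasma gate and higher again in the plasma gate, whereas Erp44 and Herpud1 in the pre-plasma gate lay among the germinal centre values.

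The first comparison asked which of these transcripts separate the plasma gate from the germinal centre gates (dark and light zone summed per plate). Of 35 genes that passed the filter on low counts, 33 rose and 0 fell, where 13.6% of the 6865 genes tested rose and 21.3% fell. The median log2 fold change of the 35 genes was 3.48, beside -0.50 over all genes tested. All 13 chaperones, all 3 prolyl isomerases, 8 of 9 disulfide isomerases and 9 of 10 degradation factors rose. In 22 of the 35 genes the lowest plasma plate lay above the highest germinal centre plate, as in 2.81% of the 6865. Dnajc10 and Syvn1 did not pass the test, and Pdia5 was not tested, with 12 counts in the whole table. Folds are edgeR log2 fold changes with their standard error over 19 plates in each group and plate as a block, and p-values are Benjamini-Hochberg adjusted over all genes tested. CPM by gate below are relative to the pool's own total count, so they compare gates for a gene and not genes with each other, since 5' tags of different genes are captured unequally.

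Among the chaperones, Hspa5 (BiP) was already present in germinal centre B cells. It ranged over 189 to 1044 CPM (median 634) in dark zone pools and 272 to 1143 CPM (median 785) in the light zone gate. In the plasma gate it ranged over 2950.1 to 5109 CPM (median 4247), above every germinal centre plate, a log2 rise of 2.73 ± 0.10 (adjusted p = 1.74e-17). Hsp90b1 encodes GRP94, the Hsp90 protein of the ER. It ran from 30.8 to 329.8 CPM (median 109.7) in dark zone pools and 30.8 to 182 CPM (median 92.3) in the light zone gate to 2378 to 4143 CPM (median 3482) in the plasma gate, 35.7-fold in the fit (log2 5.16 ± 0.14, adjusted p = 6.11e-20). Its germinal centre and plasma plates did not overlap. Hspa5 rose 6.64-fold in the fit.

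The partners of BiP rose too. Dnajb9 (ERdj4), a J-domain protein, had a median of 30.4 CPM in the dark zone gate and 17.5 in the light zone gate, against 352 to 980.2 CPM (median 571) in the plasma gate (log2 4.74 ± 0.33, adjusted p = 9.86e-12). Dnajb11 (ERdj3) and Dnajc3 (p58IPK), both J-domain partners, rose by 2.99 ± 0.10 and 4.65 ± 0.21 on the log2 scale. Sdf2l1, which works with ERdj3, went from 7.68 to 203 CPM (median 68.9) in dark zone pools and 45.9 to 251 CPM (median 107) in the light zone gate to 511 to 1653 CPM (median 909) in the plasma gate (log2 3.48 ± 0.13, adjusted p = 1.64e-17). The nucleotide exchange factors had few germinal centre counts: Hyou1 had 0 counts on 9 of 19 germinal centre plates and a plasma median of 70.9 CPM, with the largest fitted fold among the chaperones (5.63 ± 1.05, adjusted p = 0.000133) and the widest error. Sil1, at 0 on 5 germinal centre plates, rose by 4.90 ± 0.82 (adjusted p = 3.36e-05).

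Manf and Creld2, small ER proteins known to be induced by ER stress, rose on every plate. Manf ranged over 95 to 443 CPM (median 213) for the dark zone, 106 to 743 CPM (median 243) for the light zone and 2679 to 4858 CPM (median 3647) for the plasma gate (log2 4.04 ± 0.12, adjusted p = 7.93e-19). Creld2 ranged over 33.1 to 362 CPM (median 161), 16.4 to 188 CPM (median 96.7) and 2988 to 6354 CPM (median 4251) in those gates (log2 5.25 ± 0.18, adjusted p = 6.14e-18). In both genes every plasma plate stood above every germinal centre plate. The highest count of any of the 36 genes in 1 cell was 1001, for Creld2, under the highest count of 1024 in the table.

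The 2 lectin chaperones both rose. Calr, calreticulin, the soluble lectin, ranged over 11 to 164 CPM (median 68.4) for the dark zone, 35.5 to 324 CPM (median 97.8) for the light zone and 401 to 767 CPM (median 638) for the plasma gate (log2 3.0 ± 0.21, adjusted p = 8.18e-12). Canx, calnexin, its membrane-bound relative, had the lowest fold of the chaperones: 10.7 to 196 CPM (median 71.9), 15.1 to 133 CPM (median 64.4) and 51.6 to 276 CPM (median 137) in the same gates, a log2 rise of 1.36 ± 0.27 (adjusted p = 0.000275) with overlapping plates. The difference between the 2 folds was not tested. Nucb2, the calcium-binding nucleobindin 2, is only grouped with the chaperones here. It rose by 2.85 ± 0.67 (adjusted p = 0.00157), with plasma plates at 0 to 379 CPM (median 128).

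All 3 prolyl isomerases rose, with no overlap between plasma and germinal centre plates. Ppib, cyclophilin B, ranged over 110.2 to 529 CPM (median 307) for the dark zone, 1.78 to 552 CPM (median 343) for the light zone and 1742 to 2823 CPM (median 2399) for the plasma gate (log2 3.11 ± 0.11, adjusted p = 5.61e-18). Fkbp2 rose by 3.91 ± 0.13. Fkbp11, a membrane-anchored prolyl isomerase of secretory cells, came closest to an on-off pattern. It had 32 counts in all germinal centre pools together and 0 on 16 of 19 plates, and the light zone gate held none. The plasma gate ranged over 1009 to 2691 CPM (median 1761). Its fitted log2 fold was 13.12 ± 0.54 (adjusted p = 1.85e-16), the largest of the 35, and it rests on those 32 counts, of which 30 came from the dark zone gate of plate 8 of C57BL/6F. Without that plate the fitted value was 14.11 ± 0.30 on the 2 counts left, so its size is uncertain while its direction held. Over all gates, cells annotated dark zone held 3 Fkbp11 counts and cells annotated light zone 6. The 5 light-to-dark zone cells of plate 8 held none. Most of the 30 counts thus came from cells outside the 3 germinal centre states. Over all plates, the dark zone gate held 1 cell annotated plasma, 1 annotated memory-like pre-plasma and 2 annotated pre-memory. Which of these held the counts was not examined.

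Disulfide isomerases had the lowest median log2 fold of the 4 roles, 2.51, beside 4.04 for chaperones, 3.91 for prolyl isomerases and 3.70 for degradation factors. Pdia4 (ERp72) had the largest fold among them, from 0 to 193 CPM (median 51.1) in dark zone pools and 0 to 146 CPM (median 70.5) in the light zone gate to 1878 to 3319 CPM (median 2680.0) in the plasma gate (log2 5.62 ± 0.31, adjusted p = 1.2e-13). Pdia3 (ERp57), which pairs with the lectin chaperones, was counted on every plate of each gate, at 518 to 1394 CPM (median 786) for the dark zone, 475 to 1488 CPM (median 846) for the light zone and 2201 to 3521 CPM (median 2803) for the plasma gate (log2 1.88 ± 0.08, adjusted p = 1.14e-15). Pdia6 (P5) ranged over 40.6 to 607 CPM (median 345), 146 to 794 CPM (median 357) and 1709 to 3282 CPM (median 2299.6) in the same gates (log2 2.79 ± 0.12, adjusted p = 7.02e-16). In these 3 genes no plasma plate overlapped a germinal centre plate.

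P4hb encodes PDI itself, the founding member. It ranged over 0 to 392 CPM (median 109) for the dark zone, 43.0 to 312 CPM (median 164) for the light zone and 204 to 1216 CPM (median 864) for the plasma gate (log2 2.56 ± 0.16, adjusted p = 1.35e-12), higher in the plasma gate on 19 of 19 plates although the ranges overlapped. Txndc5 (ERp46) ranged over 4.77 to 387 CPM (median 183), 0 to 279 CPM (median 156) and 369 to 1398 CPM (median 717) (log2 2.51 ± 0.28, adjusted p = 5.3e-08). Txndc11, a thioredoxin-like protein with the second largest fold of this role, rose by 3.77 ± 0.47 (adjusted p = 4.78e-07). The smaller rises were in Erp29, a redox-inactive relative (1.79 ± 0.21), and Erp44, which retrieves clients and oxidases from the early secretory pathway (1.02 ± 0.10, adjusted p = 1.19e-08). Dnajc10 (ERdj5), a reductase of the degradation route, had a log2 difference of 0.91 ± 0.49 (adjusted p = 0.153), with 17.2 to 276 CPM (median 112) in the plasma gate and a median of 55.2 CPM in the dark zone gate.

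Degradation factors covered the widest span apart from Fkbp11. Derl3, a derlin of secretory tissue, was at 0 on 11 of 19 dark zone plates and 7 light zone plates. It reached 79.0 CPM (median 0) in the dark zone gate and 88.2 CPM (median 10.5) in the light zone gate. The plasma gate ranged over 79.4 to 1323 CPM (median 892), so its lowest plate lay below the highest light zone plate. With the 2 zones summed per plate, the highest germinal centre value was 55.6 CPM after TMM scaling. The log2 rise was 6.44 ± 0.69 (adjusted p = 3.13e-08). Derl1 and Derl2, the other derlins, rose by 2.29 ± 0.14 and 1.88 ± 0.20. The EDEM genes, which encode mannosidase-like proteins, rose strongly. Edem1 had medians of 17.8 CPM in the dark zone gate and 42.6 in the light zone gate, against 226 to 915 CPM (median 523) in the plasma gate (log2 4.22 ± 0.39, adjusted p = 2.5e-09). Edem2 went from 0 to 134 CPM (median 40.4) and 0 to 125 CPM (median 57.5) to 1154 to 1799 CPM (median 1464) (log2 5.39 ± 0.30, adjusted p = 8.25e-14). Edem3 rose by 3.90 ± 0.85 (adjusted p = 0.00073) with a plasma median of 38.7 CPM.

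The core of the retrotranslocation complex was uneven. Sel1l, the adaptor, had 0 to 123 CPM (median 51.2) for the dark zone, 0 to 161 CPM (median 51.9) for the light zone and 474 to 995 CPM (median 683) for the plasma gate (log2 4.14 ± 0.42, adjusted p = 1.39e-08). Syvn1, the ligase that binds it, had 7.16 to 331 CPM (median 128), 0 to 203 CPM (median 102) and 0 to 252 CPM (median 161) in the same gates, a log2 difference of 0.45 ± 0.39 that did not pass the test (adjusted p = 0.397). Sel1l plates of the 2 groups were apart, whereas Syvn1 plates overlapped over most of their range. Herpud1, encoding the scaffold HERP, was counted on every plate of each gate, with 664 to 1397 CPM (median 922) for the dark zone, 673 to 1901 CPM (median 1089) for the light zone and 1617 to 2946 CPM (median 2047) for the plasma gate (log2 1.21 ± 0.11, adjusted p = 1.77e-09). Os9, the lectin, rose by 3.50 ± 0.36 (adjusted p = 2e-08).

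**Figure D2:**
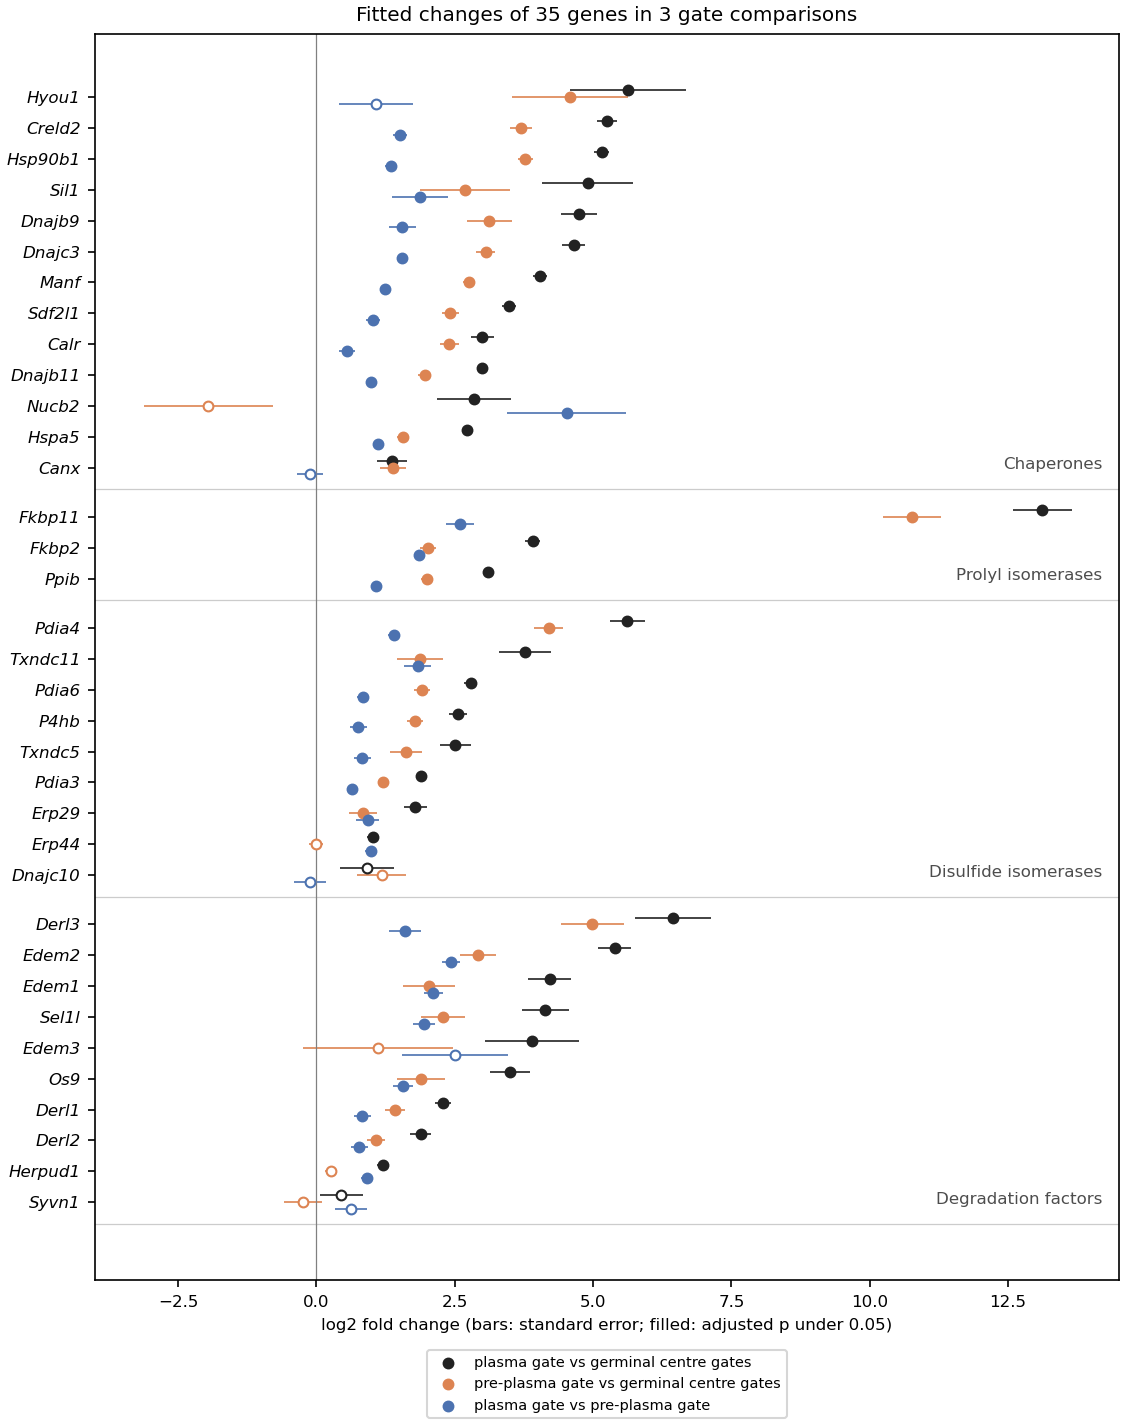
Fitted log2 fold changes of the 35 tested genes in 3 gate comparisons, by role. Points are edgeR estimates over 19 plates per group, bars are standard errors and filled points have an adjusted p under 0.05. Fkbp11 stands far to the right (13.12 and 10.76 against the germinal centre gates), and the open points include Syvn1 and Dnajc10 in all 3 comparisons.

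The pre-plasma gate was next compared with the germinal centre gates on 19 plates. Of 35 genes tested, 29 rose and 0 fell, against 7.09% of 7150 genes that rose and 8.14% that fell, and the median log2 fold was 1.96 beside -0.19 over all genes. By role, 12 of 13 chaperones, all 3 prolyl isomerases, 7 of 9 disulfide isomerases and 7 of 10 degradation factors rose. Plates of the 2 groups did not overlap in 8 chaperones, 3 prolyl isomerases, 3 disulfide isomerases and 0 degradation factors, all higher in the pre-plasma gate, beside 0.685% of all genes tested. Of its 282 cells 128 were annotated plasma, and its cells were the deepest of the 4 gates by median.

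Hspa5 ranged over 1387 to 3195 CPM (median 2162) in the pre-plasma gate, above every germinal centre plate (log2 1.56 ± 0.12, adjusted p = 6.86e-11). Hsp90b1 ranged over 773 to 2358 CPM (median 1549) (log2 3.77 ± 0.14, adjusted p = 4.89e-17) and Creld2 over 883 to 3395 CPM (median 1662) (log2 3.69 ± 0.20, adjusted p = 1.23e-13). Both were at more than 10 times their germinal centre level in the fit (13.7-fold and 12.9-fold). Manf had 938 to 3324 CPM (median 1687) (log2 2.75 ± 0.10), Sdf2l1 321 to 768 CPM (median 511) (log2 2.42 ± 0.15), Calr 205 to 779 CPM (median 491) (log2 2.40 ± 0.17) and Dnajb9 58.3 to 728 CPM (median 245) (log2 3.12 ± 0.40). Hyou1 again had the largest fold of the chaperones (4.59 ± 1.05, adjusted p = 0.00219). Nucb2 was the gene of the chaperone role that did not pass, at 0 on 7 of 19 pre-plasma plates with a log2 difference of -1.96 ± 1.16 (adjusted p = 0.31).

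Ppib ranged over 777 to 1867 CPM (median 1315) in the pre-plasma gate (log2 2.00 ± 0.11, adjusted p = 2.42e-13) and Fkbp2 rose by 2.01 ± 0.14. Fkbp11 ranged over 14.7 to 865 CPM (median 341), so that it was present on every plate of this gate (log2 10.76 ± 0.53, adjusted p = 4.19e-14, resting on the same 32 counts, and 11.69 without plate 8). Pdia4 ranged over 666 to 1689 CPM (median 1223) (log2 4.19 ± 0.26, adjusted p = 2.36e-12), the largest fold among the disulfide isomerases. Pdia3 had 1458 to 2966 CPM (median 2116) (log2 1.2 ± 0.08), Pdia6 810.1 to 2235 CPM (median 1551) (log2 1.91 ± 0.14), P4hb 198 to 826 CPM (median 553) (log2 1.78 ± 0.14) and Txndc5 131 to 883 CPM (median 523) (log2 1.61 ± 0.29). Erp44 stayed within the germinal centre values, at 395 to 855 CPM (median 492.8) against 169 to 633 CPM (median 459) and 364 to 857 CPM (median 561) in the dark and light zone gates (log2 -0.01 ± 0.13, adjusted p = 0.976). Its sign changed with the scaling, from -0.01 with TMM to 0.02 with RLE size factors.

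Derl3 led the degradation factors in the pre-plasma gate, at 49.7 to 736 CPM (median 289) (log2 4.98 ± 0.57, adjusted p = 1.83e-07), followed by Edem2 at 63.7 to 639 CPM (median 351) (log2 2.92 ± 0.32, adjusted p = 8.84e-08). Sel1l had 95.3 to 616 CPM (median 234) (log2 2.28 ± 0.40, adjusted p = 0.000117) and Edem1 58.8 to 369 CPM (median 118) (log2 2.04 ± 0.47, adjusted p = 0.00246). Herpud1, with 911 to 2242 CPM (median 1223), did not pass (log2 0.26 ± 0.11, adjusted p = 0.106), nor did Syvn1, with 0 to 233 CPM (median 108) (log2 -0.25 ± 0.34, adjusted p = 0.725) and the lowest fold of the role. Edem3 was at 0 on 5 of 19 plates and its difference of 1.11 ± 1.35 had too wide an error to call.

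Since plasma-annotated cells sat in the pre-plasma gate, the same comparison was fitted after leaving them out, on the 17 plates that kept at least 5 cells. The annotation may rest on the same transcripts, so removing cells by it may itself lower these genes. Most cells left in the gate were germinal centre cells by annotation (97, beside 56 in the 2 pre-plasma states and 1 pre-memory). The fit therefore does not describe the pre-plasma states alone. Of 33 genes tested, 8 rose and 1 fell, where 0.653% of 6435 genes rose and 4.91% fell. The 8 were Pdia4 (2.47 ± 0.46), Hsp90b1 (2.36 ± 0.24, adjusted p = 2.07e-07), Creld2 (2.31 ± 0.37), Manf (1.51 ± 0.36), Calr (1.35 ± 0.39), Dnajc3 (1.34 ± 0.28), Ppib (0.93 ± 0.17) and Dnajb11 (0.88 ± 0.21), given as log2 fold changes. The median log2 fold of the 33 genes was 0.75, beside -0.59 over all genes tested. No degradation factor rose, and Herpud1 fell by 0.61 on the log2 scale (SE 0.11, adjusted p = 0.000893), close to that median over all genes. Hspa5, at 0.48 ± 0.18, did not pass (adjusted p = 0.128), nor did Derl3 at 2.78 ± 1.09 (adjusted p = 0.15) or Syvn1 at -1.64 ± 0.50 (adjusted p = 0.0503).

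The plasma gate was then compared directly with the pre-plasma gate. Of 35 genes, 30 were higher in the plasma gate and 0 lower, where 8.42% of 6564 genes were higher and 9.69% lower. The median log2 difference was 1.12, beside -0.27 over all genes, and the plates of 8 genes lay wholly higher in the plasma gate, beside 0.686% of all genes. By role, 11 of 13 chaperones, all 3 prolyl isomerases, 8 of 9 disulfide isomerases and 8 of 10 degradation factors were higher, with median log2 differences of 1.24, 1.86, 0.83 and 1.59.

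Nucb2, 2 of the prolyl isomerases and the EDEM genes had some of the largest differences. Nucb2 was higher by 4.52 ± 1.07 (adjusted p = 0.00348), on 18 of 19 plates. Fkbp11 was higher by 2.59 ± 0.25 (adjusted p = 1.63e-08) and Fkbp2 by 1.86 ± 0.10 (adjusted p = 1.95e-13), with plates apart in both, while Ppib had 1.08 ± 0.09. Edem2 was higher by 2.43 ± 0.17 (adjusted p = 3.87e-11), Edem1 by 2.11 ± 0.17 (adjusted p = 4.95e-10), Sel1l by 1.94 ± 0.20 and Derl3 by 1.60 ± 0.29. Edem3, with a fitted difference of 2.5 ± 0.96, did not pass (adjusted p = 0.076).

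Several genes of the chaperone role were about 2 to 3 times higher in the plasma gate than in the pre-plasma gate. The log2 differences were 1.12 ± 0.09 for Hspa5, 1.35 ± 0.10 for Hsp90b1, 1.51 ± 0.13 for Creld2, 1.24 ± 0.09 for Manf, 1.55 ± 0.24 for Dnajb9 and 1.03 ± 0.13 for Sdf2l1, and all 6 passed. Sil1 was higher by 1.88 ± 0.50. Calr was higher by only 0.55 ± 0.14 (adjusted p = 0.00512), and Canx did not pass (-0.11 ± 0.24, adjusted p = 0.814). Hyou1 did not pass either (1.08 ± 0.66, adjusted p = 0.304).

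Among the disulfide isomerases, Txndc11 (1.83 ± 0.24) and Pdia4 (1.40 ± 0.10, adjusted p = 1.31e-10) differed most between the plasma and pre-plasma gates, and Pdia6 (0.83 ± 0.10), Txndc5 (0.83 ± 0.15), P4hb (0.75 ± 0.15) and Pdia3 (0.65 ± 0.07) differed less, all past the threshold. Erp44 and Herpud1, which did not pass between the pre-plasma and germinal centre gates, were both higher in the plasma gate than in the pre-plasma gate, Erp44 by 0.99 ± 0.11 (adjusted p = 8.04e-08) on 19 of 19 plates and Herpud1 by 0.91 ± 0.10 (adjusted p = 6.64e-08) on 18 of 19. Dnajc10 (-0.12 ± 0.29, adjusted p = 0.842) and Syvn1 (0.62 ± 0.30, adjusted p = 0.163) did not pass. With C57BL/6F plates alone 19 of the 35 genes were higher, beside 2.74% of 6278 genes.

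To compare cells with the same name across gates, the plasma-annotated cells of the plasma gate were set against those of the pre-plasma gate on 17 plates. Here 18 of 35 genes were higher in the plasma gate and 0 lower, against 4.67% of 5713 genes higher and 1.28% lower, with a median log2 difference of 0.66 beside 0.24 over all genes. By role these were 8 of 13 chaperones, 3 of 3 prolyl isomerases, 3 of 9 disulfide isomerases and 4 of 10 degradation factors. Edem2 was the member whose plates did not overlap (0.14% of all genes were higher without overlap), at 1214 to 2154 CPM (median 1745) against 242 to 1024 CPM (median 544) after TMM scaling (log2 1.72 ± 0.14, adjusted p = 1.58e-08). Fkbp11 went from 69.0 to 1213 CPM (median 649) to 1162 to 2796 CPM (median 1937) (1.78 ± 0.22, adjusted p = 4.1e-06) and Fkbp2 differed by 1.38 ± 0.14 (adjusted p = 1.81e-07). Nucb2, at 0 on 9 of 17 pre-plasma plates, differed by 5.01 ± 1.32 (adjusted p = 0.0217).

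Within plasma-annotated cells 14 more genes passed, with log2 differences of 0.49 to 2.02. Edem1 (2.02 ± 0.42), Txndc11 (1.54 ± 0.29), Sel1l (1.17 ± 0.21), Creld2 (0.83 ± 0.11), Dnajc3 (0.83 ± 0.11), Erp44 (0.82 ± 0.14), Pdia4 (0.74 ± 0.09), Hsp90b1 (0.66 ± 0.09), Manf (0.60 ± 0.08), Hspa5 (0.57 ± 0.09), Sdf2l1 (0.54 ± 0.13), Dnajb11 (0.53 ± 0.10), Ppib (0.49 ± 0.10) and Herpud1 (0.49 ± 0.15) were these. Calr (0.17 ± 0.15, adjusted p = 0.699), Canx (-0.30 ± 0.30, adjusted p = 0.739), Pdia3 (0.20 ± 0.09, adjusted p = 0.231), P4hb (0.34 ± 0.14), Dnajc10 (-0.02 ± 0.50), Derl3 (0.91 ± 0.37) and Derl1 (0.28 ± 0.19) were among the 17 that did not. With C57BL/6F plates alone 9 of 34 genes were higher, beside 1.34% of 5441 genes. When pools needed 10 cells, which left 2 plates, edgeR called 0 of 35, beside 0.0944% of 6359 genes higher, and 14 members had an unadjusted p under 0.05, beside 4.45% of genes. Without plate 8 of C57BL/6F, Herpud1 no longer passed (0.52 ± 0.15, adjusted p = 0.0506).

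The dark and light zone gates were compared on 19 plates to ask whether cells of these 2 gates differ in this machinery. Both gates were mixed by annotation. The light zone gate held 139 cells annotated dark zone beside 189 annotated light zone. The dark zone gate held 61 annotated light zone beside 249 annotated dark zone. By annotated state, the summed shares were 0.405 to 0.664% for dark zone and 0.656 to 0.892% for light zone, a difference that was not tested. By edgeR 0 of 31 genes tested were called in either direction, against 0.305% of 5904 genes, and 4 had an unadjusted p under 0.05, beside 4.73% of genes. The median log2 difference (dark minus light) was -0.31, beside -0.11 over all genes. Erp44 was nearest to the threshold, lower in the dark zone gate by -0.59 ± 0.14 (adjusted p = 0.0794) and higher there on 2 of 19 plates. Hspa5 differed by -0.36 ± 0.11 (adjusted p = 0.382) and Herpud1 by -0.31 ± 0.10 (adjusted p = 0.448). DESeq2 called 2 of the 31, beside 2.29% of genes: Erp44 lower (-0.57, adjusted p = 0.00236) and Txndc11 higher (1.82, adjusted p = 0.0311), and edgeR called Erp44 lower when pools needed 10 cells and 0.318% of genes were called (-0.64, adjusted p = 0.0423). Fkbp11, Hyou1, Sil1, Edem3 and Pdia5 had too few counts to test.

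Within the plasma gate, C57BL/6M plates (10) were compared with C57BL/6F plates (9). By edgeR 0 of 35 genes were called, against 0.665% of 6019 genes in either direction. An unadjusted p under 0.05 was found for 4, beside 4.64% of genes, and DESeq2 called 0, beside 1.4%. The log2 differences (C57BL/6M minus C57BL/6F) lay between -0.54 and 1.01 with a median of 0.11. Hspa5 ran from 3087 to 5508 CPM (median 3832) on C57BL/6F plates and 3565 to 5342 CPM (median 4611) on C57BL/6M plates after TMM scaling (0.19 ± 0.11), and Creld2 had 3022 to 5606 CPM (median 3939.7) and 3677 to 6306 CPM (median 4813) (0.31 ± 0.13, adjusted p = 0.818). The lowest was Txndc5, -0.54 ± 0.24 (adjusted p = 0.967), and the highest Edem3, 1.01 ± 0.69. A test of whether the gate differences themselves varied with sampleID called 0 genes of 6865, 7150 and 6564 in the 3 gate comparisons against germinal centre and pre-plasma gates, with 1, 2 and 4 of the 35 members at an unadjusted p under 0.05, beside 2.74%, 1.89% and 2.59% of genes.

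The 7 annotated states give a finer description. No p is given between them, because the annotation may come from the same transcripts. Pools of 5 cells were available on 19 plates for the dark zone, light zone and plasma states, on 5 plates (plate 6 left out) for memory-like cells and on 2 for light-to-dark zone cells. Over plates, the 36 genes took 0.405 to 0.664% of counts (median 0.577%) in the dark zone state, 0.656 to 0.892% (median 0.740%) in the light zone state and 3.62 to 5.36% (median 4.22%) in the plasma state. Memory-like pre-plasma cells had 1.74 to 4.90% (median 2.06%, 5 plates). Activated pre-plasma cells, summed per sampleID, had 1.91% (10 cells of C57BL/6F) and 1.72% (19 cells of C57BL/6M). The 17 pre-memory cells had 0.555%. Between annotated plasma cells and all germinal centre states together, the log2 differences of 35 genes had a median of 3.02, beside -0.25 over all genes fitted. Depth varied widely, with a median of 229914 counts per activated cell, 161602 per light-to-dark zone cell, 70190 per plasma cell and 16638 per memory-like cell. Memory-like cells had a median of 376 genes per cell, beside 1510 in plasma cells. Their 7 plasma cell markers summed to 25676 CPM, above the 19067 CPM of the plasma state.

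**Figure D3:**
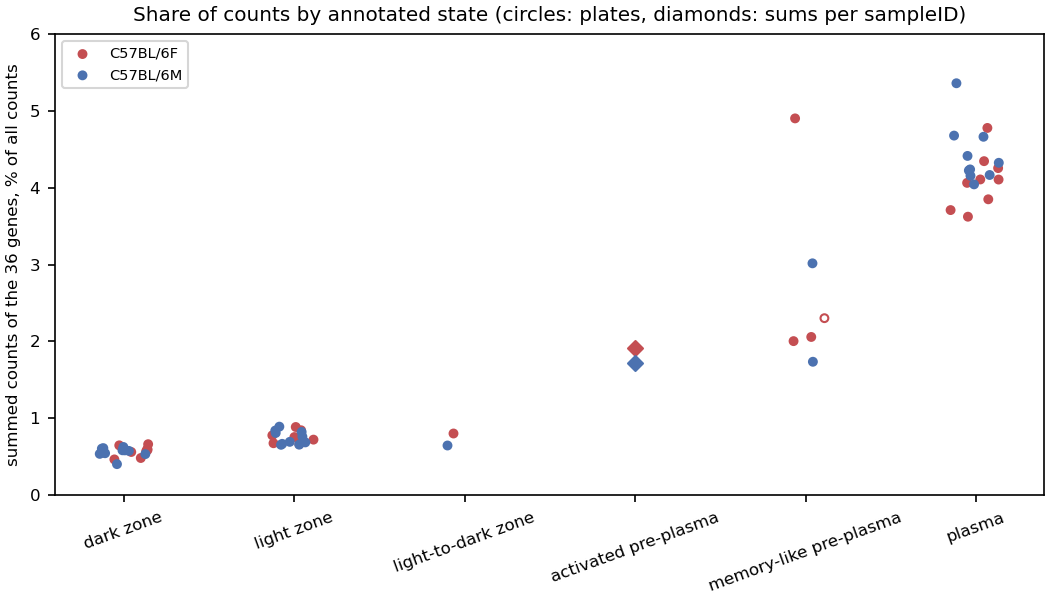
Share of all counts taken by the 36 genes, in percent, by annotated state. Circles are plates with at least 5 cells of the state (open circle: plate 6 of C57BL/6F), diamonds are sums over all activated cells of a sampleID, and colours are the sampleIDs. Germinal centre states lie below 0.9%, activated cells at 1.91 and 1.72%, and plasma cells between 3.62 and 5.36%.

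For single genes, CPM over all cells of a state are given. Shares of cells with a count are given for cells of at least 10000 counts, each thinned to 10000. This left out 22 of 63 memory-like cells, 37 dark zone, 34 light zone and 3 plasma cells, and no activated cell. Hsp90b1 stood at 88.9 CPM in dark zone, 168 in light zone, 151 in light-to-dark zone, 107 in pre-memory, 1213 in activated, 2272 in memory-like and 3004 in plasma cells. After thinning, 100% of activated, 97.6% of memory-like and 99.6% of plasma cells held a count, against 20.7% of dark zone and 26.2% of light zone cells. Hspa5 had 521, 923, 859, 505, 1862, 2320.4 and 3697 CPM in the same order. Both pre-plasma states lay between the germinal centre and plasma states for these 2 chaperones. Creld2 (1401, 3137 and 3623 CPM in activated, memory-like and plasma cells), Manf (1462, 3613 and 3180.0), Calr (440.4, 372 and 660.4), Dnajb9 (105, 123 and 546) and Sdf2l1 (436, 392 and 891) stood at no more than 303 CPM in any germinal centre state.

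Fkbp11 showed the steepest steps between states: 0.10 CPM in dark zone, 0.40 in light zone, 2.01 in light-to-dark zone, 127 in activated, 431 in memory-like and 1312 in plasma cells. A count was found in 44.8% of activated, 24.4% of memory-like and 82.0% of plasma cells after thinning, and in 0.41% of light zone cells. Ppib had 303, 370.2, 916, 1068 and 2187 CPM in dark zone, light zone, activated, memory-like and plasma cells. Pdia4 in those 5 states had 47.8, 111, 829.6, 983 and 2367 CPM. Pdia3 (757, 969, 1741, 1803 and 2861), Pdia6 (288, 454, 1301, 1546 and 2271), P4hb (114, 168, 508, 307 and 835) and Txndc5 (197, 169, 299, 463 and 782) followed in the same states. Over plates Pdia4 ran from 2.30 to 111 CPM (median 41.9) in the dark zone state to 1936 to 3116 CPM (median 2372) in the plasma state.

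Degradation factors differed in where activated cells stood. Edem1 had 57.8 CPM in activated cells, beside 44.6 for dark zone, 71.4 for light zone, 263 in memory-like and 439 in plasma cells. Edem2 had 45.1 CPM for dark zone and 43.4 for light zone, against 218 in activated, 271 in memory-like and 1150.2 in plasma cells, so that activated cells stood above both zones. Sel1l had 48.5 and 70.3 in the zones, against 107, 325 and 569.9. Derl3 stood at 65.0 CPM in light-to-dark zone cells, against 9.79 in the dark zone and 9.66 in the light zone state, 142 in activated and 749 in plasma cells. Herpud1 in activated cells (869 CPM) was no higher than in dark zone (965) or light zone cells (1162), and Syvn1 was at 59.5 CPM there against 119 and 107. Erp44 in activated cells, at 375 CPM (C57BL/6F) and 255 (C57BL/6M), stood below the sums of both zones (468 and 633 CPM). Over plates the dark zone state ran over 106 to 643 CPM (median 467) and the light zone state over 308 to 914 CPM (median 605), so that the lower activated value lay under every light zone plate. These activated values are sums of 10 and 19 cells and carry no error.

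**Figure D4:**
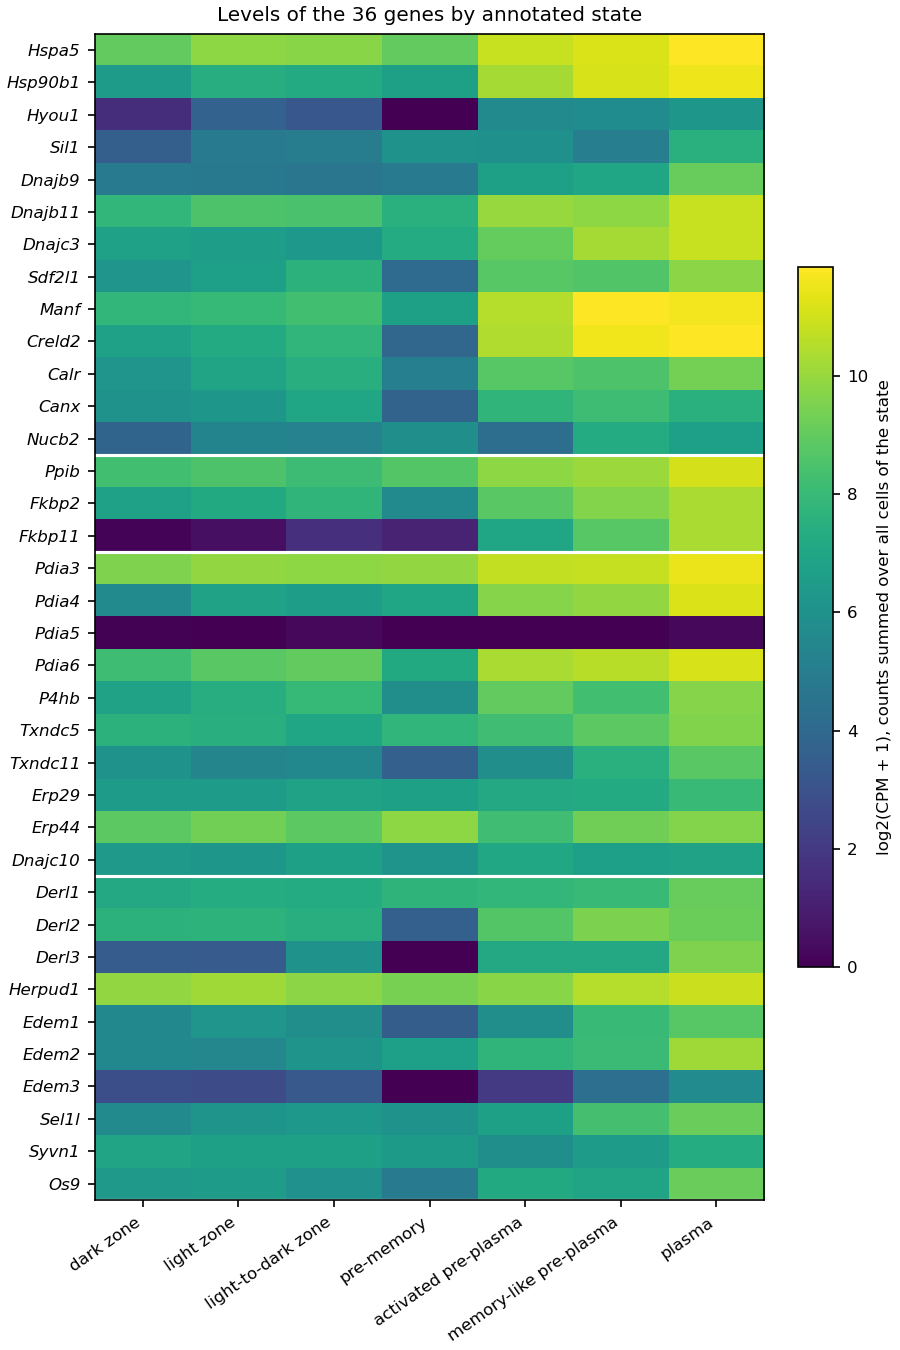
Levels of all 36 genes by annotated state, as log2(CPM + 1) of counts summed over all cells of a state. Rows are genes with white lines between roles, columns are the 7 states, and brighter means higher, to be compared between states within a gene. The plasma column is brightest for most genes, Pdia5 is dark throughout, and Herpud1, Pdia3 and Erp44 are bright in every column.

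Gate and annotation were also crossed. Plasma-annotated cells in the pre-plasma gate gave the 36 genes 3.19% of counts (63 cells, C57BL/6F) and 3.55% (65 cells, C57BL/6M), against 4.58% (146 cells) and 4.82% (205 cells) in the plasma gate. Memory-like cells had 2.29 and 2.19% in the pre-plasma gate (10 and 17 cells), for C57BL/6F and C57BL/6M. In the plasma gate they had 4.28 and 2.71% (18 and 15 cells) in that order. By the authors' cell cycle phase, plasma-annotated cells in G1 had 4.44 to 5.87% (median 5.03%, 19 plates, 363 cells). Cells in G2M had 2.86 to 5.51% (median 3.39%, 4 plates, 22 cells) and cells in S 3.09 and 4.15% on 2 plates (11 cells). Only pools of at least 5 cells of a phase on a plate entered, so these are not all of the 480 plasma-annotated cells. The G2M range overlapped both others, whereas the S range, from 2 plates, lay below the G1 range, and no phase difference was tested.

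CD138, the surface protein that marks plasma cells, was recorded by index sorting for each cell. Within the pre-plasma gate, the share of counts from the 36 genes and the CD138 signal had a Spearman correlation of 0.203 to 0.744 over cells of a plate (median 0.526), above 0 on 19 of 19 plates. In the plasma gate it was -0.275 to 0.371 (median 0.035), above 0 on 12 of 19 plates. With B220 fluorescence, also recorded, the correlation was -0.621 to 0.533 (median -0.226) in the pre-plasma gate, above 0 on 4 of 19 plates. In the plasma gate the B220 values were -0.602 to 0.337 (median -0.035), above 0 on 9 of 19 plates. Among plasma-annotated cells of the pre-plasma gate alone, the correlation with CD138 was 0.133 in C57BL/6F (63 cells) and 0.141 in C57BL/6M (65 cells). Here cells of all plates of a sampleID were pooled, so differences between plates enter. The pooled values therefore cannot be set against the correlations per plate to show an effect of the annotation. Cells of a plate share library preparation and the pre-plasma gate mixes annotated states, so all these correlations are descriptions.

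A further 56 genes of ER folding, oxidation and degradation, of which 53 are in the table, gave the setting. Between the plasma and germinal centre gates, 18 of 39 tested rose and 2 fell (13.6% and 21.3% over all genes), with a median log2 fold of 1.13. The largest rises were in Hspa13, an Hsp70-like protein of microsomes (5.85 ± 0.84, adjusted p = 4.22e-06), Ero1l, the oxidase that recharges PDI (4.75 ± 0.75, adjusted p = 2.07e-05), and Erlec1, a lectin related to OS9 (4.13 ± 0.65, adjusted p = 1.4e-05). The 2 that fell were Txndc16 (-3.68 ± 0.86, adjusted p = 0.00146) and Tmub1 (-2.16 ± 0.80, adjusted p = 0.0386). Between the pre-plasma and germinal centre gates 10 of 40 rose and 0 fell, and between the plasma and pre-plasma gates 9 of 40 were higher and 0 lower. Xbp1 itself went from 69.9 to 299.8 CPM (median 237) to 2284 to 6509 CPM (median 4316) after TMM scaling between the germinal centre and plasma gates (log2 4.35 ± 0.14, adjusted p = 3.06e-18).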

How the data were processed

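Per the submitters' processing notes, reads were handled with STAR 2.5.3a and HTSeq 0.9.1 on the mm10 build. How cells were filtered is not given in the sources used here. Deposited values are raw counts, whole numbers for each gene in each cell. The authors' table of cells gives plate, gate, state and phase, the spike-in share as a fraction of each cell's counts in the deposited values, and CD138 and B220 fluorescence as inverse hyperbolic sines per the file headers. Rows naming no gene numbered 0. The replicate is the plate. The letter in the authors' sex column gave the sampleID, since plate codes in the labels could not be matched to plate numbers.

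Counts were summed per plate and class in pools of at least 5 cells and tested with edgeR 4.0.16 (R 4.3.3; TMM, filterByExpr by class, estimateDisp, glmQLFit, glmQLFTest), with the plate as block because the 2 pools of a plate come from the same plate, and none between sampleIDs. Benjamini-Hochberg adjustment ran over all genes tested, with 0.05 as threshold. SE is the log2 fold divided by the square root of F. Spread covers plates, and counting error limits genes near 0. The scripts were tested on simulated counts. Alternatives were DESeq2 1.42.0, RLE size factors, no filter, pools of 10 cells, each sampleID alone, immunoglobulin genes left out and no plate block. Another was thinning to 10000 counts, which left out the 96 cells below that depth. Plate 4 or plate 8 of C57BL/6F was also left out, these last 2 chosen after seeing the data.

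The 36 genes, the role groups, the 56 further genes and the marker lists were chosen with earlier results of these data known. By rule, 19 genes get full values, and in each gate comparison also the 2 largest and the lowest fold of each role and any gene called against the majority. Of the further genes, the 3 largest called rises and falls are named. Promoter windows are RefSeq's. Protein sequences were not used here.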

Additional observations from a re-analysis of the deposited data

Results flagged for a closer look

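The 19 genes given full values in the plasma gate, per sampleID, and the summed share of the 36 genes in memory-like cells were checked for a plate far from the others. In 3 of 39 groups the gap of 1 plate to its nearest neighbour exceeded Dixon's 95% limit, and chance alone gives about 1 in 20. Plate 4 of C57BL/6F was the lowest of 9 plates for Sdf2l1, at 470.5 TMM-scaled CPM against 797 for the next plate and a median of 905. The same plate was the lowest for Derl3, at 73.1 CPM against 645 for the next plate and a median of 803. Its plasma gate pool held 18 cells and 982202 counts. Plate 11 of C57BL/6M was the highest of 10 plates for Pdia6, at 3516 CPM against 2694 for the next plate and a median of 2480. Without plate 4, the numbers of genes called in the gate comparisons stayed within 1.5 times of those with it.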

How the results depend on the processing

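Between the plasma and germinal centre gates, 31 to 33 genes rose under every alternative. Without the replicate block (plate), 33 genes rose in that comparison, 29 between the pre-plasma and germinal centre gates, 30 between the plasma and pre-plasma gates and 16 within annotated plasma cells. Leaving out cells annotated plasma gave 8 higher and 1 lower in the pre-plasma gate. It turned Herpud1 to -0.61, where the median over all genes was -0.59. In the same gate comparison with all cells, DESeq2 called 1 lower (Nucb2). With C57BL/6F plates only, 19 genes were higher in the plasma than in the pre-plasma gate and 9 within annotated plasma cells. With pools of 10 cells the latter was 0. Between the zones DESeq2 called 1 higher and 1 lower, and pools of 10 cells gave 1 lower. Signs turned for 3 uncalled genes: Syvn1 with C57BL/6F plates only to -0.0473 (plasma against germinal centre gates) and -0.0522 (annotated classes), Nucb2 to 0.22 with C57BL/6M plates only, and Erp44 to 0.0203 (DESeq2), 0.0207 (RLE), 0.0716 (C57BL/6F plates only), 0.105 (thinned) and 0.000783 (without plate 8 of C57BL/6F), both in the pre-plasma gate. The cause was not tested. Over all genes DESeq2 called 1178 higher and 2552 lower between plasma and germinal centre gates (937 and 1461 by edgeR), 835 and 1147 between pre-plasma and germinal centre gates (507 and 582), and 773 and 1591 between plasma and pre-plasma gates (553 and 636). RLE moved the median of all genes from 0.24 to 0.13 within annotated plasma cells and from -0.27 to -0.37 between plasma and pre-plasma gates. Leaving out single plates was not run beyond plates 4 and 8, as groups hold more than 5. Genes near 0 counts (Hyou1, Sil1, Nucb2, Edem3) are limited by depth.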
